A study of Homo sapiens with 6 samples.

Results

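Metallothionein genes were examined in LX-2 cells, an immortalised human hepatic stellate cell line, with and without transforming growth factor β1 (TGF-β1). The members were chosen by gene symbol: 6 metallothionein genes (MT2A, MT1E, MT1F, MT1G, MT1M and MT1X), the metal-sensing transcription factor MTF1 and the zinc exporter SLC30A1. Of these 8 symbols, 7 were among the 27830 genes of the deposited table. MT1G was not analysed here. RNA sequencing gave 3 control libraries, which received no TGF-β1, and 3 libraries of cells given TGF-β1 at 10 ng/ml for 24 h. All cells were LX-2 cultures grown in DMEM containing 10% fetal bovine serum. The labels place the TGF-β1 exposure in medium without serum and do not give the controls' medium for those hours, so TGF-β1 and serum withdrawal cannot be told apart here. The line is a single model of a stellate cell, with no other liver cell in the culture by its labels. Whether the 3 libraries of a group came from different cultures is not stated in the labels, so the p-values cover only the library-to-library spread seen here, which may be technical.

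Metallothioneins are small, cysteine-rich proteins that bind zinc and copper through their thiol groups and take up cadmium and other metals. Free zinc activates MTF1, which binds metal response elements in the promoters of metallothionein genes and of SLC30A1, the plasma membrane transporter that carries zinc out of the cytoplasm. Glucocorticoids also raise metallothionein transcription, and the liver is a main site of metallothionein synthesis.

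The metallothionein members lie in a cluster on chromosome 16, and their coding sequences show how alike the measured transcripts are. In GENCODE 29 (GRCh38), MT2A (ENSG00000125148) lies at chr16:56608199-56609497, MT1E (ENSG00000169715) at chr16:56625475-56627112 and MT1M (ENSG00000205364) at chr16:56632233-56633986. MT1F (ENSG00000198417) lies at chr16:56657694-56660698 and MT1X (ENSG00000187193) at chr16:56682424-56684196. All 5 are on the plus strand, within 75998 bp from the start of MT2A to the end of MT1X. MTF1 (ENSG00000188786) and SLC30A1 (ENSG00000170385) are on the minus strand of chromosome 1, at chr1:37809567-37859620 and chr1:211571568-211578742. Each metallothionein coding sequence has 186 bases in 3 exons and 61 codons before the stop, of which 20 (32.8%) encode cysteine. They are given 5′ to 3′ from the GENCODE 29 transcript of each gene on GRCh38, with capitals marking the bases that differ from MT2A.
MT2A: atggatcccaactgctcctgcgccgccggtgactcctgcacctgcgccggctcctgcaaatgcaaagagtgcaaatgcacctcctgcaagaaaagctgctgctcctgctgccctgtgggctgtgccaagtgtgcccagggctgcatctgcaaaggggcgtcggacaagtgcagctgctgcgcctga
MT1E: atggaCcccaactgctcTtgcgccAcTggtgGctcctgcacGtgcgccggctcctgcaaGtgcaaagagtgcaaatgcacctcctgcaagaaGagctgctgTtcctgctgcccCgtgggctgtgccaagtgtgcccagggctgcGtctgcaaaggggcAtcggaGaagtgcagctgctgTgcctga
MT1F: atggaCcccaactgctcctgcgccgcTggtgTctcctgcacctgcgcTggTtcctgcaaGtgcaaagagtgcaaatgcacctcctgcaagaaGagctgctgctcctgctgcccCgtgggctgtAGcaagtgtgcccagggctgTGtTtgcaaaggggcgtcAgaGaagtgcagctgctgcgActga
MT1M: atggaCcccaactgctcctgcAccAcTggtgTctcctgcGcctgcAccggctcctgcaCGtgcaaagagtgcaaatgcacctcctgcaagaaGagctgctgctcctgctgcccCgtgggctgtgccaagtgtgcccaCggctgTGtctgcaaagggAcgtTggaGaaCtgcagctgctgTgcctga
MT1X: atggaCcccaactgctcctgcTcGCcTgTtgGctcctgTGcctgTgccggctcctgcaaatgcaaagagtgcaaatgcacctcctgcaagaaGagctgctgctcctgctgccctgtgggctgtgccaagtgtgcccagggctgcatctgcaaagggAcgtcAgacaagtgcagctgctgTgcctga

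Identity to MT2A over these 186 positions was 92.5% for MT1E and for MT1X, each with 14 differing bases. It was 91.4% for MT1F, with 16 differing bases, and 89.8% for MT1M, with 19. The untranslated parts of the transcripts separate the genes further. Of all stretches of 50 bases in a whole transcript, 4.88% in MT2A, 5.34% in MT1E, 3.59% in MT1F and 7.05% in MT1M also occurred in a transcript of another gene. None of these 4 transcripts shared a stretch of 100 bases. In MT1X, 45.1% of the 50-base stretches and 19.1% of the 100-base stretches were shared, and 18.1% of its exon bases overlapped the neighbouring gene AC026461.1 on the same strand. The sources used here do not state how reads matching several genes were counted, so the MT1X counts are uncertain, as is the share of reads from the shorter shared stretches of the other 4 genes.

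The core of the metal response element was searched in the 250 bases before the RefSeq start of each gene (GRCh38.p14), because MTF1 acts through it. The search used the letters TGCACNC and TGCGCNC on both strands. MT2A held 7 matches, MT1X 4, SLC30A1 1 and MTF1 0, and no matches within a gene overlapped each other. Over all 35116 promoter windows of the same length, 24.8% held at least 1 match, 0.370% at least 4 and 0.0513% at least 6. Promoters of MT1E, MT1F and MT1M were not used here. A match is a description of the letters and not a measured binding site. The windows below show 5 of the matches in capitals, each read on its gene's strand.
MT2A, 139 bases before the start, chr16:56608435-56608461, plus strand: cccggcccagTGCGCGCggccgggtgt
MT2A, 54 bases before the start, chr16:56608520-56608546, plus strand: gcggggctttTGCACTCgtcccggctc
MT1X, 122 bases before the start, chr16:56682338-56682364, plus strand: cacgggttgcTGCACCCggcccaggat
MT1X, 53 bases before the start, chr16:56682407-56682433, plus strand: gcggggcctcTGCGCCCggccctcttc
SLC30A1, 49 bases before the start, chr1:211579194-211579220, minus strand: cgggggttccGAGTGCAaagcaaagtt

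The libraries held 13866957 to 17694675 counted reads, and 14463 genes passed the filter on low counts and were tested. Levels of a gene between libraries are given as CPM, reads scaled to library depth, on library sizes scaled by edgeR's trimmed mean of M values, and a count of 3, taken as the limit of detection, equals 0.175 to 0.221 CPM by counting error alone. The marker levels that follow in this paragraph are instead CPM on total counts, without these scaling factors. Stellate and fibroblast markers (11 genes) summed to 2925 to 2999.9 CPM in the controls and 3224 to 3769.5 CPM under TGF-β1. The members did not all shift one way: COL1A1 averaged 1319 CPM in controls and 1780 CPM under TGF-β1, VIM 1407 and 1232 CPM, TAGLN 96.9 and 306 CPM, and ACTA2 4.96 and 4.78 CPM. DES and LRAT, classical markers of stellate cells in tissue, were under 0.2 CPM on average. Among markers of other cells, APOA1, APOB, CYP3A4, EPCAM and the endothelial gene CDH5 were also under that level. The hepatocyte list (5 of 8 genes in the table) summed to 23.3 to 30.5 CPM in controls and 26.1 to 30.3 CPM under TGF-β1, nearly all of it from 1 gene (26.6 and 27.8 CPM on average). The epithelial list (5 of 6 genes in the table), carried by KRT8 and KRT18, summed to 544 to 664 CPM in controls and 421 to 594 CPM under TGF-β1. The endothelial list (6 of 7), carried by TIE1 (326 and 287 CPM on average), summed to 316 to 359 and 271 to 315 CPM. Its groups nearly met, at 316.5 CPM in the lowest control and 315.1 CPM in the highest TGF-β1 library. The scaling factors, 0.971 to 1.03 over the libraries, are large enough to close that gap. The leukocyte list (5 of 8), carried by CD14 (15.6 and 10.3 CPM on average), summed to 14.0 to 18.7 and 11.7 to 12.2 CPM. That sum was lower in every TGF-β1 library, a separation that 9.12% of all tested genes showed in scaled CPM. Its members did not all go that way. By group means ITGAM and LYZ were also lower under TGF-β1, but PTPRC (0.383 and 0.796 CPM) and CD163 were higher. LYZ and CD163 were under 0.2 CPM on average. The part of these lists in the results was not tested. In bulk RNA, fewer cells expressing a gene and less RNA per cell cannot be told apart.

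The libraries differed by the GC content of genes, which touches several members. Genes of up to 40% GC (2180 genes) stood at a median log2 deviation of 0.63 from their own mean level in TGF-β1 replicate 1 and -0.42 in control replicate 2, and between -0.18 and 0.20 in the other 4 libraries. Genes of 50 to 55% GC (2318 genes) stood between -0.11 and 0.12 in all 6 libraries. The transcript GC content was 53.9% for MT2A, 53.5% for MT1E, 58.2% for MT1F, 62.5% for MT1M, 46.7% for MTF1 and 38.0% for SLC30A1. Differences are therefore also given with a smooth GC trend removed from each library.

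Metallothionein RNA was abundant in LX-2 cells, and nearly all of that measured over the members was MT2A. Levels between genes are compared as deposited FPKM, a read count scaled to gene length and library depth. MT2A, the most widely expressed metallothionein, ranked between the second and the fourth most abundant gene of the table in every library. Of the FPKM summed over MT2A, MT1E, MT1F, MT1M and MT1X, MT2A made up 92.8 to 94.1% and MT1E 4.96 to 6.09%. Outside that sum, the pseudogene MT1L averaged 22.9 FPKM in controls and 29.3 under TGF-β1, and MT1A 2.21 and 2.77. By mean FPKM the controls ran from MT2A (2903 ± 290.0, SD, n = 3) to MT1E (179), MT1M (18.4), MT1F (14.8), MTF1 (3.47), SLC30A1 (2.18) and MT1X (0.289). The order was the same under TGF-β1, where the means were 2803 ± 536 for MT2A, 155 for MT1E, 16.7 for MT1M, 12.03 for MT1F, 4.08 for MTF1, 2.37 for SLC30A1 and 0.225 for MT1X. Among neighbours in that order, only MT1M and MT1F overlapped in FPKM over the 6 libraries, and their order rests on the gene length used. The deposited FPKM values imply a length of 511 bases for MT1M and 1852 for MT1F, against 829 and 690 in the GENCODE 29 transcripts that gave the coding sequences. With the GENCODE lengths the control mean of MT1F was 40.1 CPM per kilobase and that of MT1M 11.4.

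**Figure D1:**
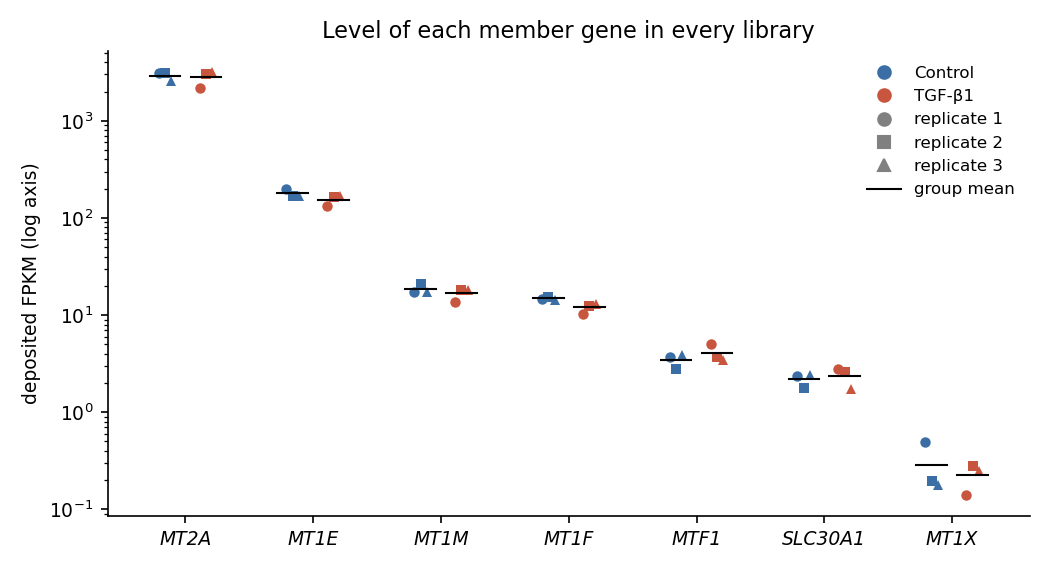
Deposited FPKM (log axis) of the 7 measured member genes in each of the 6 libraries, with controls in blue, TGF-β1 in red, a marker shape for each replicate and a bar for the group mean. MT2A lies between 2190.1 and 3186 FPKM over the 6 libraries, and TGF-β1 replicate 1 is the lowest of its group for every metallothionein shown.

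None of the 6 tested members was called at an adjusted p under 0.05 by edgeR's quasi-likelihood test over all tested genes, in which 0.366% of genes were called. No member had an unadjusted p under 0.05, against 15.6% of all tested genes. DESeq2, which called 4.45% of all genes, and limma voom, which called 0.38%, also called 0 of the 6. Limma on the deposited FPKM values called 0 of the 6, beside 0.332% of all genes with a pseudocount of 1 and 0.346% with 0.1. The median log2 difference, TGF-β1 minus control, was -0.20 over the 4 tested metallothionein members and -0.12 over the 6 tested members, beside 0.01 over all tested genes. With the GC trend removed these 4 stood between -0.21 (MT1F) and 0.01 (MT2A). The tested family genes outside the members went the other way: the pseudogene MT1L stood at 0.33 and MT1A at 0.30. MT1X did not pass the filter.

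MT2A was measured at 2801, 2895 and 2338 CPM in control replicates 1 to 3 and at 1979.5, 2703 and 2971 CPM in TGF-β1 replicates 1 to 3. The groups overlapped: the highest and the lowest library both belonged to the TGF-β1 group. The means were 2678 ± 299 and 2551 ± 513 CPM (SD, n = 3 each), a log2 difference of -0.07 (SE 0.16, 95% interval -0.42 to 0.28, edgeR adjusted p = 0.861). On the fold scale the interval ran from 0.750 to 1.21. Counting error was small beside the spread between libraries: the lowest MT2A count, 32594, has a counting error of 0.554%, whereas the coefficient of variation was 11.1% among controls and 20.1% under TGF-β1. The sign was not stable, as the log2 difference was 0.08 without TGF-β1 replicate 1 and 0.01 with the GC trend removed.

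MT1E, the next most abundant isoform, was at 209.99, 184 and 177 CPM in the controls and at 138, 167 and 180.2 CPM under TGF-β1. The lowest 2 libraries were TGF-β1 libraries, and TGF-β1 replicate 3 lay between controls. The log2 difference was -0.23 (SE 0.14, 95% interval -0.53 to 0.07, edgeR adjusted p = 0.442), and -0.16 with the GC trend removed.

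MT1F was the only tested member whose groups did not overlap, which 17.1% of all tested genes showed in either direction, 9.12% with TGF-β1 lower and 7.93% with TGF-β1 higher. Its controls were at 27.1, 29.6 and 26.5 CPM and its TGF-β1 libraries at 19.0, 22.7 and 24.9 CPM. The means were 27.7 ± 1.64 and 22.2 ± 2.96 CPM (SD, n = 3 each). The log2 difference of -0.32 (SE 0.16, 95% interval -0.68 to 0.03) did not pass, with an edgeR adjusted p of 0.362. With the GC trend removed it was -0.21.

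MT1M, another MT1 isoform, was low, at 8.84, 10.9 and 8.72 CPM in the controls and at 6.86, 9.13 and 9.49 CPM under TGF-β1. Its groups overlapped, with counts of 113 to 187. The log2 difference was -0.16 (SE 0.20, 95% interval -0.60 to 0.28, edgeR adjusted p = 0.735), and -0.05 with the GC trend removed. MT1X was near the limit of detection, with counts of 12, 6 and 5 in the controls and 4, 8 and 6 under TGF-β1. Every library was above a count of 3, and the groups overlapped. The part of the shared bases in this low count was not tested.

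The 4 tested metallothionein members shared their lowest library. TGF-β1 replicate 1 had the lowest CPM of all 6 libraries for each of these 4, and it still did with the GC trend removed. MT1L and MT1A, tested but not members, were lowest in control replicates 3 and 1 (7.25 and 0.636 CPM). Genes of 50 to 55% GC also had their lowest median log2 deviation in TGF-β1 replicate 1 (-0.11). The share of all genes lowest in that library was not counted. Summed RNA of the metallothionein members took 0.305, 0.303 and 0.256% of the counts in the controls and 0.217, 0.297 and 0.312% under TGF-β1. The highest and the lowest share were again both TGF-β1 libraries. In CPM the sums averaged 2906 ± 311 and 2744 ± 539 (SD, n = 3 each), -5.56% relative to the control mean, a difference within the spread of either group. Leaving out each library in turn moved that value between -13.2% and 4.77%, the latter without TGF-β1 replicate 1.

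**Figure D2:**
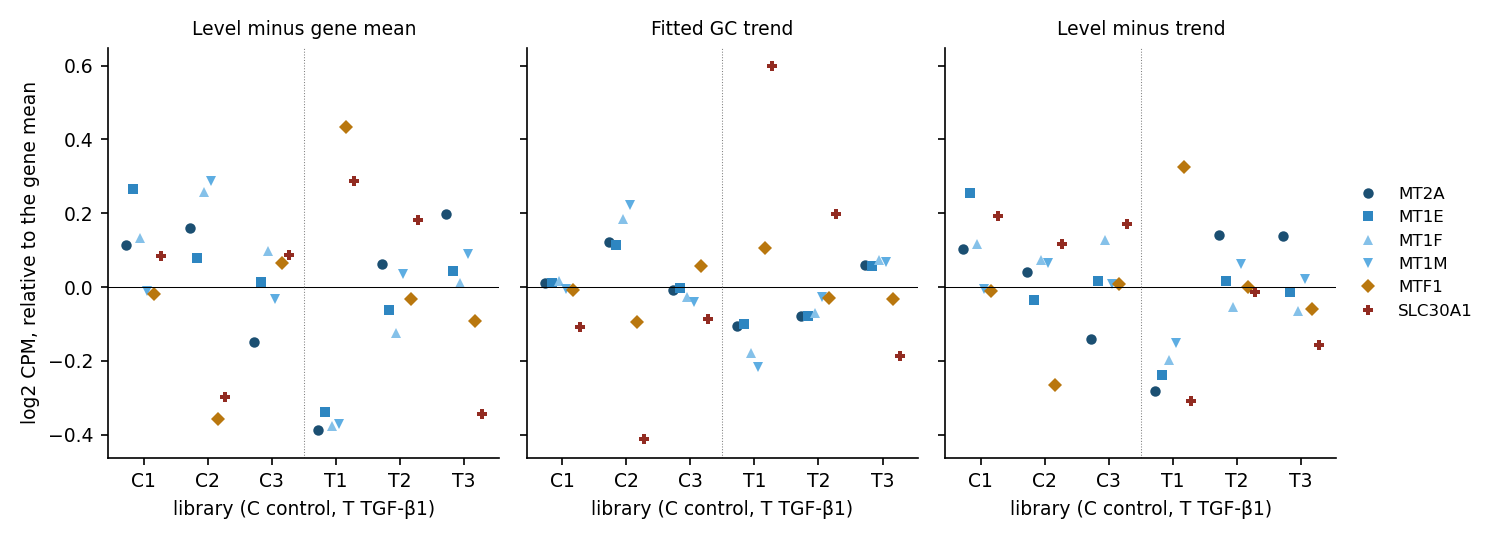
Deviation of log2 CPM from the gene's mean over 6 libraries (left), the part fitted by the GC trend of each library (centre) and what remains (right), for the 6 tested members. The 4 metallothioneins lie lowest in TGF-β1 replicate 1 in the left and right panels, and the fitted GC trend of SLC30A1 reaches 0.60 in that library.

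Ratios between isoforms within a library remove what the isoforms share. The MT2A to MT1F ratio in FPKM was 179 to 209.6 in the controls and 211 to 242 under TGF-β1, 1.18-fold higher by geometric means. The groups did not overlap, and p was 0.1 by a two-sided exact permutation test, the smallest that 3 against 3 libraries can give (adjusted p = 0.267 over 4 ratios by Benjamini-Hochberg). The MT2A to MT1E ratio was 15.2 to 18.1 in controls and 16.5 to 19.0 under TGF-β1 (exact permutation p = 0.2). Exact permutation p was 0.2 for MT1M to MT1F and 0.4 for MT2A to MT1M. With 3 libraries a group no ratio could reach 0.05 by this test, so it does not tell whether the ratios differ.

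The regulator MTF1 was at 29.3, 23.1 and 31.1 CPM in the controls and at 40.1, 29.1 and 27.9 CPM under TGF-β1. The highest value was in TGF-β1 replicate 1, the library lowest in the tested metallothionein members, and the other values interleaved. The log2 difference was 0.22 (SE 0.19, 95% interval -0.19 to 0.63, edgeR adjusted p = 0.615), and 0.03 without TGF-β1 replicate 1.

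The exporter SLC30A1, a target of MTF1, was at 14.0, 10.7 and 14.0 CPM in the controls and at 16.2, 15.003 and 10.4 CPM under TGF-β1. The groups overlapped, and the lowest library was TGF-β1 replicate 3. The log2 difference was 0.10 (SE 0.21, 95% interval -0.35 to 0.56, edgeR adjusted p = 0.840). With the GC trend removed the direction turned to -0.32 (SE 0.13, 95% interval -0.60 to -0.04), which did not pass after adjustment (edgeR adjusted p = 0.188). The GC trend fitted for a gene of its GC content was -0.11, -0.41 and -0.09 in the controls and 0.60, 0.20 and -0.19 in the TGF-β1 libraries. Leaving out control replicate 2 gave -0.04, and leaving out TGF-β1 replicate 1 gave -0.02.

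**Figure D3:**
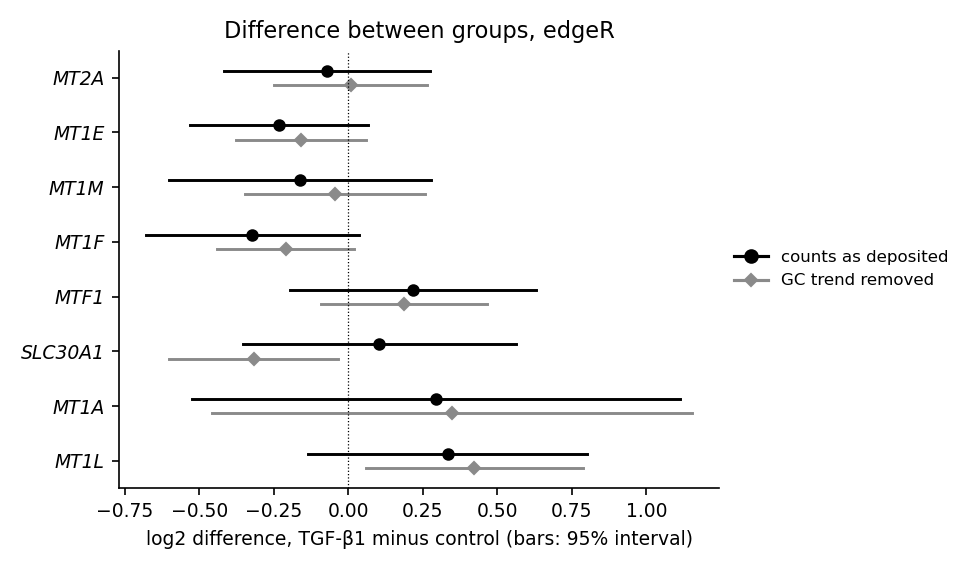
Log2 difference, TGF-β1 minus control, with its 95% interval from edgeR for the 6 tested members, the further metallothionein gene MT1A and the pseudogene MT1L. Values are from the counts as deposited (black) and with the GC trend removed (grey). The intervals of all 8 genes span 0 from the deposited counts, and with the GC trend removed that of SLC30A1 lies below 0 and that of MT1L above 0.

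Likeness of pattern was measured as the root mean square difference of log2 CPM, each gene centred on its mean, over the 6 libraries and 9299 candidate genes of at least 10 CPM. From MT2A, MT1M stood at 0.10, MT1E at 0.13 and MT1F at 0.15. SLC30A1 stood at 0.41 and MTF1 at 0.43, beside a median of 0.24 over the candidates. By distance from MT2A, MT1E came at rank 1429 and MT1F at 2312 among 9304 genes of at least 10 CPM. MT1M, below that level (9.48 CPM in controls and 8.50 under TGF-β1), would take rank 539. Many other genes were therefore nearer to MT2A than these isoforms. MTF1 and SLC30A1 were 0.16 apart. The candidates nearest to MT2A were SERTAD1 (0.02), RRP9 (0.03), SSR2 (0.03), RPS16 (0.03) and EIF5AP4 (0.04). Those nearest to SLC30A1 were CEBPG, PCGF6 and TAF9, each at 0.03 beside a candidate median of 0.32. The 6 libraries share their depth and GC differences across all these genes, so these distances are a description.

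The other metallothionein genes were low. Of 14 listed, 7 were in the table and 2 were tested; edgeR, DESeq2, limma voom and limma on FPKM called 0, and 0 had an unadjusted p under 0.05; DESeq2 gave MT1A no adjusted p. MT1L, annotated next to MT2A in the cluster as a transcribed pseudogene, had counts of 135, 201 and 119 in the controls and 168, 227 and 167 under TGF-β1. Its groups overlapped in CPM (9.50 ± 2.23 and 11.98 ± 1.65, SD, n = 3 each), with a log2 difference of 0.33 (SE 0.21, 95% interval -0.14 to 0.80, edgeR adjusted p = 0.485). With the GC trend removed it was 0.42 (95% interval 0.06 to 0.79, edgeR adjusted p = 0.175). MT1A had 9 to 20 counts in the controls and 11 to 23 under TGF-β1, a log2 difference of 0.30 (edgeR adjusted p = 0.739). The remaining 5 listed genes in the table (MT1H, MT1DP, MT4, MT1XP1 and MT1JP) had at most 5 counts in any library.

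Zinc transporters were read beside SLC30A1 because they set the zinc that MTF1 senses. The exporter list had 10 genes in the table, 9 of the SLC30 family and TMEM163, and 7 were tested, all SLC30 genes and SLC30A1 included. EdgeR, DESeq2, limma voom and limma on FPKM called 0 of them, and 2 had an unadjusted p under 0.05. Their median log2 difference was 0.47 beside 0.01 over all genes, and 0.02 with the GC trend removed; their median transcript GC content was 39.1%, against 48.6% over all tested genes. SLC30A9 was at 61.3 ± 15.4 CPM in the controls and 90.3 ± 27.0 CPM under TGF-β1, a log2 difference of 0.56 (edgeR adjusted p = 0.272) and of 0.18 with the GC trend removed. SLC30A4, an exporter into vesicles, was at 6.87 ± 1.16 and 9.63 ± 2.69 CPM, a log2 difference of 0.49 (edgeR adjusted p = 0.342) and of 0.13 with the GC trend removed. Among zinc importers of the SLC39 family, 10 of 13 in the table were tested with 0 calls by the same tools, 2 with an unadjusted p under 0.05 and a median of -0.03. SLC39A1 and SLC39A10, which bring zinc into the cytoplasm, had log2 differences of -0.80 and 0.79 (edgeR adjusted p = 0.442 and 0.246), the latter 0.28 with the GC trend removed. SLC39A1 rests on 6 to 25 counts a library, and leaving out 1 library moved its log2 difference between -1.17 and -0.40. Without TGF-β1 replicate 3, where 11.2% of all genes were called, SLC30A9 and SLC39A10 passed the threshold (edgeR adjusted p = 0.0453 and 0.0160). Without TGF-β1 replicate 1, where 2.2% were called, their log2 differences were 0.30 and 0.28 (edgeR adjusted p = 0.488 and 0.693), and that of SLC30A4 was 0.23.

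**Figure D4:**
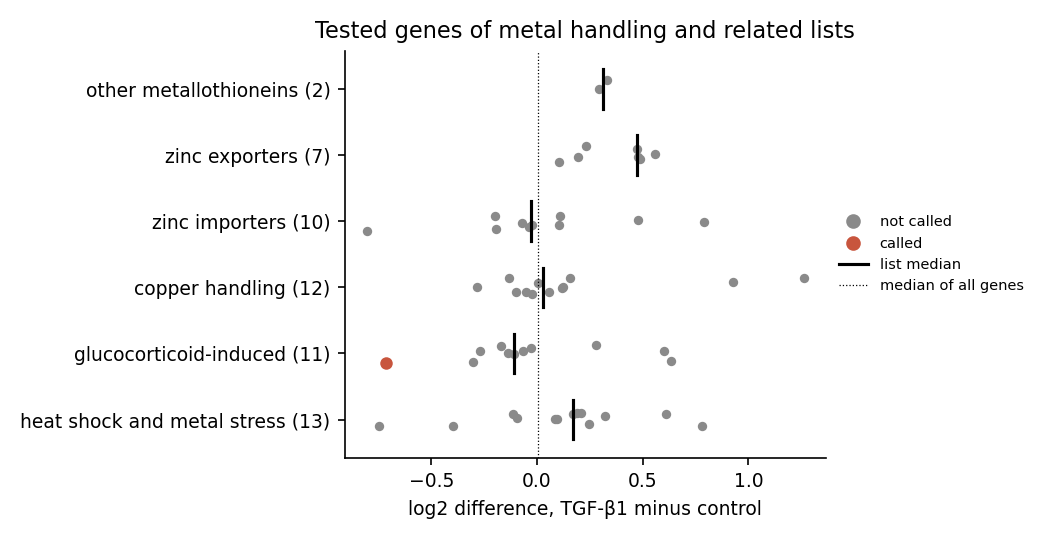
Log2 difference, TGF-β1 minus control, of each tested gene in 6 lists, with the number tested in brackets, a bar for the list median and a dotted line for the median of all tested genes. DUSP1 is the only gene called at an edgeR adjusted p under 0.05; the zinc exporters have a median of 0.47, which was 0.02 with the GC trend removed.

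Copper handling genes, listed because metallothioneins also store copper, had 12 of 14 members tested. EdgeR and limma called 0, DESeq2 (4.45% of all genes called) called ATP7A higher, and 2 had an unadjusted p under 0.05. The median log2 difference was 0.03. STEAP2, a metalloreductase, was at 0.815 ± 0.246 and 1.97 ± 0.379 CPM (log2 difference 1.26, edgeR adjusted p = 0.142), and the copper pump ATP7A at 10.3 ± 2.71 and 19.6 ± 9.19 CPM (log2 difference 0.93, edgeR adjusted p = 0.199). The log2 difference of ATP7A was 1.15 without TGF-β1 replicate 3, where 11.2% of all genes were called (edgeR adjusted p = 0.0223), 0.48 without TGF-β1 replicate 1 (edgeR adjusted p = 0.336) and 0.51 after removal of the GC trend (edgeR adjusted p = 0.114). That of STEAP2 was 0.81 after removal of the GC trend. STEAP2 rests on 10 to 37 counts a library. Leaving out 1 library moved its log2 difference between 1.08 and 1.53, and over all alternatives it ran from 0.167 to 1.53. The 0.167 is from limma on log2(FPKM + 1). There its mean FPKM, 0.0930 in controls and 0.227 under TGF-β1, is small beside the pseudocount, so this value is not comparable with the others. In STEAP2 and ATP7A all TGF-β1 libraries lay above all controls, as in 7.93% of all tested genes.

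Genes induced by glucocorticoids were listed because the same hormones raise MT2A. All 11 in the table were tested; 1 fell, beside 0.18% of all genes called lower, and 0 rose. DUSP1, a phosphatase that inactivates MAP kinases, was at 186, 191 and 184 CPM in the controls and at 102, 115 and 124 CPM under TGF-β1. All TGF-β1 libraries lay below all controls, as in 9.12% of all tested genes, and the log2 difference was -0.72 (SE 0.12, edgeR adjusted p = 0.0350). The call was lost without control replicate 1, 2 or 3 or TGF-β1 replicate 2, with edgeR adjusted p from 0.0975 to 0.301. Its log2 difference there was -0.74 to -0.72. Calls over all genes in those fits, in the same order, were 13, 37, 15 and 4, against 53 with all libraries. The DUSP1 call was kept with the GC trend removed (-0.63, edgeR adjusted p = 0.00105). The list median was -0.11, beside 0.01 over all genes, and the glucocorticoid receptor gene NR3C1 was at 60.04 ± 12.9 and 93.1 ± 36.1 CPM (log2 difference 0.63, edgeR adjusted p = 0.258). Its log2 difference was 0.86 without TGF-β1 replicate 3, where 11.2% of all genes were called (edgeR adjusted p = 0.0197), 0.29 without TGF-β1 replicate 1 (edgeR adjusted p = 0.509) and 0.22 after removal of the GC trend (edgeR adjusted p = 0.287). After removal of the GC trend, where 3.46% of all genes were called, ERRFI1 was also called lower; it is named here after its values were seen.

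Heat shock and metal stress genes, many of which respond to the same metals as metallothioneins, had all 13 members tested. EdgeR and limma called 0, DESeq2 (4.45% of all genes called) called HSPH1 higher, and 3 had an unadjusted p under 0.05. The median log2 difference was 0.17. The chaperone HSPH1 was at 111 ± 21.2 and 190.1 ± 61.5 CPM, a log2 difference of 0.78 (edgeR adjusted p = 0.149). Its groups did not overlap, which 7.93% of all tested genes showed with TGF-β1 higher. HSPH1 passed without TGF-β1 replicate 1 (0.49, edgeR adjusted p = 0.0432, with 2.2% of all genes called) and without TGF-β1 replicate 3 (0.96, edgeR adjusted p = 0.00867, with 11.2% called). With the GC trend removed its log2 difference was 0.42 and was called (edgeR adjusted p = 0.0295), and TXNRD1, a thioredoxin reductase named here after its values were seen, was called lower. SRXN1, which reduces oxidised peroxiredoxins, was at 1.63 ± 0.796 and 1.003 ± 0.607 CPM (log2 difference -0.75, edgeR adjusted p = 0.494). It rests on 9 to 36 counts a library, and leaving out 1 library moved the log2 difference between -1.31 and -0.46.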

How the data were processed

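Per the labels' protocols, Trizol RNA was made into libraries using a kit that does not mark strand (NEBNext Ultra RNA). The submitters' processing notes name HISAT2, HTSeq 0.13.5 and GRCh38; the sources used here give no annotation release. The authors deposited whole-number read counts per gene and FPKM values for each library, per the file headers. Libraries were grouped by their labelled treatment, 3 against 3, with totals of 13866957 to 17694675 counts.

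Counts were tested with edgeR 4.0.16 (R 4.3.3; TMM factors, filterByExpr, robust quasi-likelihood F test, Benjamini-Hochberg over all 14463 tested genes, threshold 0.05). Alternatives were RLE, upper quartile or no factors, no filter, at least 1 CPM in 3 libraries, a replicate block, each library left out, DESeq2 1.42.0, limma 3.58.1 (voom, and log2 of FPKM plus 1 or 0.1), a fit without robust estimation, and removal of each library's loess trend (span 0.5) on GC, alone, with length or with the block. GC came from the longest GENCODE 29 transcript (99.4% of tested genes). The procedure was tested on simulated data.

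Named were all members, every called gene of each list or otherwise its 2 tested genes of largest difference, and the 5 genes nearest MT2A and 3 nearest SLC30A1 in pattern. Members, lists and tests were chosen with earlier results of these data known. The result of 1 listed gene is not reported here. The detection limit of 3 counts covers counting error only.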

Additional observations from a re-analysis of the deposited data

How the results depend on the processing

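No member was called under any of the 20 alternatives run, and MT1E, MT1F, MT1M and MTF1 kept their sign in all of them. The log2 difference of MT2A turned to 0.00843 with the GC trend removed, to 0.0175 with GC and length trends removed, and ranged from -0.196 to 0.0803 leaving out 1 library. That of SLC30A1 turned to -0.318, -0.301 and -0.320 with the GC trend, GC and length trends, and GC trend with the replicate block removed, and ranged from -0.0433 to 0.270 leaving out 1 library. Leaving out 1 library gave -0.319 to -0.134 for MT1E, -0.413 to -0.225 for MT1F, -0.249 to -0.0317 for MT1M and 0.0299 to 0.311 for MTF1. The 53 calls over all genes became 111 with upper quartile factors, 1240 without a filter, 590 with DESeq2, 500 with the GC trend removed, 666 with GC and length trends removed, and 4 to 1671 leaving out 1 library (lowest without TGF-β1 replicate 2, highest without TGF-β1 replicate 3). The 1 call among the listed pathway genes became 9 without a filter, 4 with DESeq2, 2 with limma voom, 5 with the GC trend removed, 8 with GC and length trends removed, and 0 to 10 leaving out 1 library. With the replicate block, all-gene calls were 527 and listed calls 4; with block and GC trend removal, 441 and 5. Same-numbered libraries correlated at 0.426, 0.247 and -0.650 in their deviations from the group means. With the GC trend removed the values were 0.0436, 0.288 and -0.433. These correlations show no common pairing by number, but they cannot tell whether the libraries were paired by design. The cause of these shifts was not tested. With 3 libraries a group, 95% intervals of the 6 tested members reached as low as -0.68 (MT1F) and as high as 0.63 (MTF1), and MT1X, at 4 to 12 counts, was too shallow to test.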
